A study of Rattus norvegicus with 8 samples.

Results

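Interferon-stimulated genes were examined in bone around titanium implants of hyperlipidemic and normal rats. The genes are a list of 44 symbols of antiviral effectors, nucleic acid sensors, transcription factors and antigen-processing genes, matched by symbol among 19120 gene loci. A locus was found for 39 of them, each symbol with a single locus, while Oas1b, Oas1i, Oas1k, Tap1 and Xaf1 were not analysed here. The tissue was femoral bone of male Wistar rats, 12 to 13 weeks old, taken 10 days after each rat had received titanium implants in the left and right femoral shaft. The hyperlipidemic group (4 libraries) had been fed a high-fat diet and the normal group (4 libraries) a normal diet, each for 8 weeks. The labels name no genotype or drug. They do not say whether the libraries came from separate animals, so the p-values below reflect library-to-library spread alone, which may be technical. The values are FPKM, fragments corrected for locus length and for library size. No counts were used, so the depth behind each value is unknown.

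Interferons are secreted when cells sense foreign or misplaced nucleic acid. Type I interferon acts through its receptor and the kinases Jak1 and Tyk2 to form ISGF3, a complex that holds Stat2 and Irf9 and binds the interferon-stimulated response element (ISRE) in promoters. Interferon gamma acts through the gamma-activated site (GAS). In bone, interferons are known to restrain the formation of osteoclasts, and marrow cells carry a basal interferon tone.

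Promoters show what many of these genes share in sequence. RefSeq promoter windows on build GRCr8, running from 250 bases before to 50 bases after the annotated start, were matched for 29 of the 39 genes. Those without a window were Ddx58, Dhx58, Zbp1, Ifit1, Ifit2, Oas2, Mx2, Rtp4, Isg15 and Usp18. The ISRE core was searched as GAAANNGAAA and, on the other strand, TTTCNNTTTC. It was present in 19 of 29 windows (65.5%), against 1131 of the 27457 genes with a window (4.12%). The GAS core, TTCNNNGAA, which reads the same on both strands, was present in 10 of 29 (34.5%), against 2577 of 27457 genes (9.39%). Of the 23 ISRE cores, 22 lay before the start, with first bases from position -169 to -16, and that at position 27 was in Ifi44. A match describes the letters of the window and is not a shown binding site. Windows of 30 bases around the core are shown for 8 genes of different roles because they let the shared element be read directly, on the strand of the gene, with the ISRE core in capitals.
Irf7: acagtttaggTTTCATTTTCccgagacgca
Ifih1: gaagagaatcGAAACAGAAAccgatgtgtg
Eif2ak2: agtccgccggGAAAACGAAAcagagagaac
Ifit3: tttaagtctgTTTCAGTTTCtagtttccac
Oas3: gcagagaggaGAAAACGAAAgtgaatgatc
Isg20: taatgaaccaGAAACTGAAActaaaacggc
Ifi44: gcacactgagTTTCAGTTTCatttcccagg
Tap2: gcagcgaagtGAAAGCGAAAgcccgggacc
Irf1, Irf8 and Irf9 are shown as a contrast. Their windows had a GAS core, in capitals below, and no ISRE core as spelled above.
Irf1: acagcctgatTTCCCCGAAatgatgaggc
Irf8: cagaagtgatTTCTCGGAAaggcgagcgc
Irf9: accacgtgatTTCTAGGAActgcacctcc
Rsad2, the gene with the highest level of the list, and Ifit3, the Ifit gene with the smallest p, are shown with their whole windows, with the ISRE core in capitals. The Rsad2 window is chr6:48788071-48788370 on the minus strand and the Ifit3 window chr1:241527076-241527375 on the plus strand, both on GRCr8.
Rsad2: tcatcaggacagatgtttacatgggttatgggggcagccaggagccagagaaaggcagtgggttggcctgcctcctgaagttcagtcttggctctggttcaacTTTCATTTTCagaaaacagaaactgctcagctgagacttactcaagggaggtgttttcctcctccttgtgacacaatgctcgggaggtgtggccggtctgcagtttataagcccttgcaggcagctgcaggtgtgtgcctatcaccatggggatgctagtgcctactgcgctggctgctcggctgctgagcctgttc
Ifit3: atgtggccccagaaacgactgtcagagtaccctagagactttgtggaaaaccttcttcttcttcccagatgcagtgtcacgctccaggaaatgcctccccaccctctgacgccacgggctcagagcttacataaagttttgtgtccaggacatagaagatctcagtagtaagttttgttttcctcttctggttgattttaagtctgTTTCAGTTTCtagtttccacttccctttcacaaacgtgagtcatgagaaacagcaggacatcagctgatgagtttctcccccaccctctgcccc

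Hyperlipidemic and normal bone were then compared. No interferon-stimulated gene passed the test in either direction, and the groups overlapped for all but Parp9. The median within-group SD was 0.64 on the log2 scale, beside 0.50 for all genes. All 39 genes passed the filter of a mean of at least 0.5 FPKM. Of these, 0 were called by limma on log2(FPKM + 1) at a Benjamini-Hochberg adjusted p under 0.05, where 1.39% of all 13742 genes tested were called, 0.146% as higher and 1.24% as lower. Their adjusted p ran from 0.275 to 0.999. At an unadjusted p under 0.05 there were 2 of 39, Parp9 and Ifi44, or 5.13%, beside 13.0% of all genes. The log2 change was above 0 for 30 of 39 genes (76.9%), beside 65.0% of all genes, and its median was 0.26, beside 0.18 for all genes. Under median-of-ratios scaling, quantile normalization or an equal sum over long loci, 24 of 39 were above 0, the median was between 0.12 and 0.14, and the median of all genes was between 0.052 and 0.057. The 95% interval of the log2 change held 0 for 37 of 39 genes. Intervals were wide, reaching from -0.94 to 2.77 for Herc6, so the lack of a call does not show equal levels. The authors' deposited table has 0 of 39 genes at a q-value under 0.05, with a smallest q of 0.840, and 20 of 19120 genes overall. It marks Isg15 alone of the 39 as up (deposited log2 fold change 1.08, q-value 0.911). The sign of its log2 fold change was that of the fit for 33 of 39 genes. In bulk bone, fewer cells of a type and less RNA per cell cannot be told apart.

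**Figure D1:**
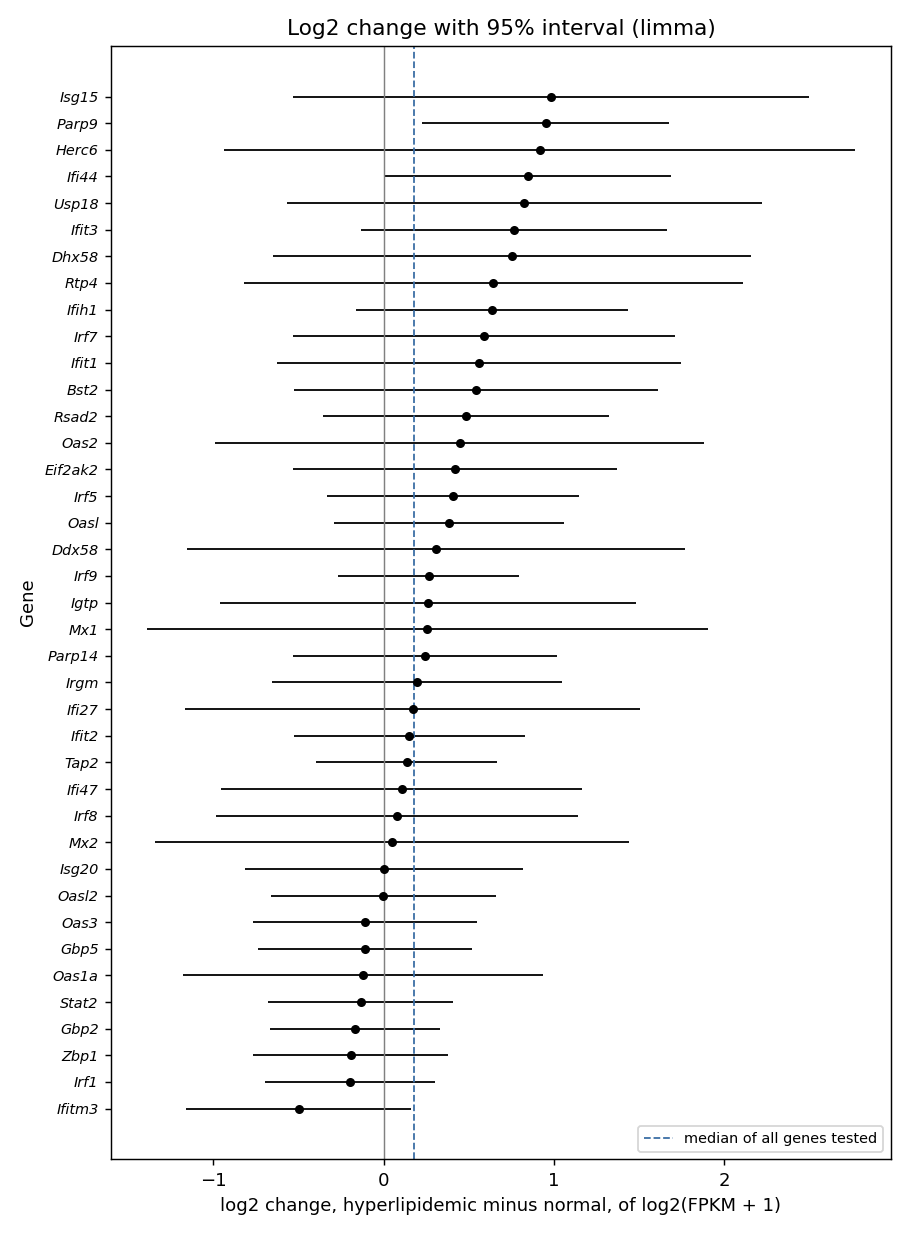
Log2 change of each of the 39 genes, hyperlipidemic minus normal (x axis, on log2(FPKM + 1)), with the 95% interval from limma; the dashed line is the median of all genes tested, 0.18. The intervals of Parp9 and Ifi44 lie above 0, and those of the other 37 genes hold it.

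Levels spanned a wide range across the list. Rsad2, which encodes the antiviral enzyme viperin, had the highest mean over the 8 libraries, 93.0 FPKM. Ifitm3, a membrane protein that hinders viral entry, followed at 43.1 FPKM, the transcription factor Irf7 at 41.5 and Ifi27 at 25.6. Gbp5 was lowest at 2.70 FPKM, and 24 of 39 genes had a mean under 10 FPKM.

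Among the transcription factors, the gene that amplifies the interferon response varied most between libraries. Irf7 is itself induced by interferon and drives interferon genes in turn. It measured 21.8, 28.9, 71.9 and 79.0 FPKM in hyperlipidemic replicates 1 to 4, against 12.3, 35.3, 27.7 and 55.0 FPKM in normal replicates 1 to 4. Hyperlipidemic replicates 3 and 4 were above all normal libraries, while replicates 1 and 2 lay inside the normal range (log2 change 0.59, SE 0.51, limma adjusted p = 0.613). Stat2 and Irf9, the interferon-specific parts of ISGF3, moved little within the hyperlipidemic group. Stat2 averaged 9.15 ± 0.301 FPKM in hyperlipidemic and 10.4 ± 2.87 FPKM in normal bone (SD, n = 4 each; log2 change -0.13, limma adjusted p = 0.830). Irf9 averaged 9.48 ± 0.982 FPKM in hyperlipidemic and 7.88 ± 2.26 FPKM in normal bone (0.27, adjusted p = 0.631). Irf1, a factor induced by interferon gamma, was at 13.9, 12.4, 13.9 and 13.6 FPKM in hyperlipidemic replicates and at 13.3, 18.2, 11.8 and 20.4 FPKM in normal replicates. Its hyperlipidemic values sat close together inside the normal range (log2 change -0.20, 95% interval -0.70 to 0.30). Irf8, which directs the formation of macrophages and dendritic cells, averaged 13.9 ± 5.66 FPKM in hyperlipidemic and 14.0 ± 7.82 FPKM in normal bone. Its log2 change of 0.08 turned to -0.076 under median-of-ratios scaling. Irf5, a factor downstream of Toll-like receptors, was at 8.32, 7.94, 5.02 and 5.37 FPKM in hyperlipidemic replicates and at 3.93, 9.37, 3.06 and 3.96 FPKM in normal replicates. Here hyperlipidemic replicates 1 and 2 were the high ones, the reverse of Irf7.

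All 4 genes for sensors of cytosolic RNA and the RNA-activated kinase had log2 changes above 0, from 0.31 to 0.75, and none was called. Ifih1 encodes MDA5, the sensor of long double-stranded RNA. It measured 8.79, 7.21, 15.0 and 15.3 FPKM in hyperlipidemic replicates 1 to 4, against 3.17, 7.50, 7.88 and 10.4 FPKM in normal replicates 1 to 4 (log2 change 0.64, SE 0.36, limma adjusted p = 0.462). Replicates 3 and 4 of the hyperlipidemic group lay above every normal library and the other 2 within the normal range. Ddx58, which encodes RIG-I, was at 3.37, 2.14, 5.10 and 3.44 FPKM in hyperlipidemic replicates, against 0, 3.87, 1.47 and 12.1 FPKM in normal replicates. Dhx58, which encodes their regulator LGP2, was at 1.77, 2.19, 9.03 and 6.44 FPKM in hyperlipidemic replicates, against 0, 2.18, 2.13 and 7.20 FPKM in normal replicates. Both were listed at 0 in normal replicate 1 and highest of the normal group in replicate 4. Eif2ak2, the kinase PKR that halts translation, averaged 14.1 ± 5.10 FPKM in hyperlipidemic and 11.3 ± 6.70 FPKM in normal bone (log2 change 0.42, adjusted p = 0.677). Zbp1, a sensor of Z-form nucleic acid, averaged 3.45 ± 0.241 FPKM in hyperlipidemic and 4.17 ± 1.04 FPKM in normal bone (-0.19, adjusted p = 0.757).

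The Ifit genes, whose products bind viral RNA and hold back its translation, lie within 51508 bp on chromosome 1 of Rnor_6.0 (252894663 to 252946170). Neighbouring genes did not share 1 pattern. Ifit3 measured 10.8, 15.5, 28.2 and 27.2 FPKM in hyperlipidemic replicates 1 to 4, against 10.2, 5.99, 9.55 and 22.2 FPKM in normal replicates 1 to 4 (log2 change 0.77, 95% interval -0.13 to 1.67, limma adjusted p = 0.440). All 4 hyperlipidemic values exceeded the lowest 3 normal ones, and normal replicate 4 lay among the hyperlipidemic values. Ifit2 was at 11.9, 11.8, 19.8 and 15.2 FPKM in hyperlipidemic replicates, against 9.85, 10.4, 11.1 and 23.7 FPKM in normal replicates. Without normal replicate 4 its log2 change was 0.43 in place of 0.15, with an adjusted p of 0.514, and it turned to -0.010 under median-of-ratios scaling. Ifit1 ran differently, at 18.8, 3.88, 28.0 and 9.32 FPKM in hyperlipidemic replicates and at 12.4, 5.20, 12.0 and 4.63 FPKM in normal replicates. It was high in replicates 1 and 3 of both groups and low in replicates 2 and 4 of both (log2 change 0.56, adjusted p = 0.651).

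Many proteins of the OAS family make 2-5A, the short oligoadenylate that switches on RNase L. Of the 5 OAS genes measured, 2 had log2 changes above 0 and 3 below, from -0.12 to 0.45, and none was called. Oas1a, Oas3 and Oas2 lie within 162444 bp on chromosome 12. Oas2 measured 2.28, 3.76, 6.85 and 7.18 FPKM in hyperlipidemic replicates 1 to 4, against 0, 3.65, 4.602 and 10.1 FPKM in normal replicates 1 to 4 (limma adjusted p = 0.778). The highest and the lowest of its 8 values were both in the normal group. Oas1a averaged 3.81 ± 2.54 FPKM in hyperlipidemic and 4.01 ± 2.33 FPKM in normal bone, and Oas3 3.61 ± 0.947 and 4.05 ± 1.40 FPKM in hyperlipidemic and normal bone. The related Oasl2, 12703 bp from Oasl, averaged 11.0 ± 3.58 FPKM in hyperlipidemic and 11.1 ± 3.88 FPKM in normal bone (log2 change -0.0030, 95% interval -0.66 to 0.66). Oasl was at 6.08 ± 1.95 FPKM in hyperlipidemic and 4.40 ± 1.36 FPKM in normal bone (0.38, adjusted p = 0.590). The OAS genes are related in sequence. Any reads they share may have been split between them, which was not tested, so their single values are uncertain. The same holds for Mx1 and Mx2, and for the Ifit and Gbp genes.

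Both Mx genes, dynamin-like GTPases that trap viral nucleocapsids, had their highest value in normal replicate 4. Mx1 measured 3.22, 2.38, 7.47 and 8.53 FPKM in hyperlipidemic replicates 1 to 4, against 0, 5.99, 3.73 and 16.1 FPKM in normal replicates 1 to 4. The ratio of mean FPKM was 0.836 while the log2 change was 0.26 (adjusted p = 0.898), since the log scale weighs the value listed at 0 more heavily. Mx2 was at 2.23, 1.87, 6.44 and 2.77 FPKM in hyperlipidemic replicates and at 0.214, 2.63, 2.95 and 12.0 FPKM in normal replicates (log2 change 0.05).

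Genes of the ISG15 system had the highest median log2 change of any role, 0.92 over 3 genes, and none was called. Isg15, a ubiquitin-like protein attached to other proteins, measured 2.39, 4.97, 9.28 and 10.1 FPKM in hyperlipidemic replicates 1 to 4, against 0, 2.08, 2.96 and 11.5 FPKM in normal replicates 1 to 4 (log2 change 0.98, SE 0.68, limma adjusted p = 0.542). Usp18, which removes Isg15 and damps the type I receptor, was at 1.62, 3.32, 10.6 and 8.27 FPKM in hyperlipidemic replicates, against 0, 3.20, 4.02 and 4.86 FPKM in normal replicates. Herc6, a ligase for Isg15 in mice, was at 5.07, 8.98, 15.9 and 12.1 FPKM in hyperlipidemic replicates, against 0, 3.18, 7.76 and 28.0 FPKM in normal replicates. All 3 genes were listed at 0 in normal replicate 1 and highest of the normal group in replicate 4. The log2 changes without normal replicate 1 were 0.38 for Isg15, 0.25 for Usp18 and 0.079 for Herc6. Without normal replicate 4 they were 1.59, 1.10 and 1.70, with adjusted p of 0.372, 0.545 and 0.417.

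**Figure D2:**
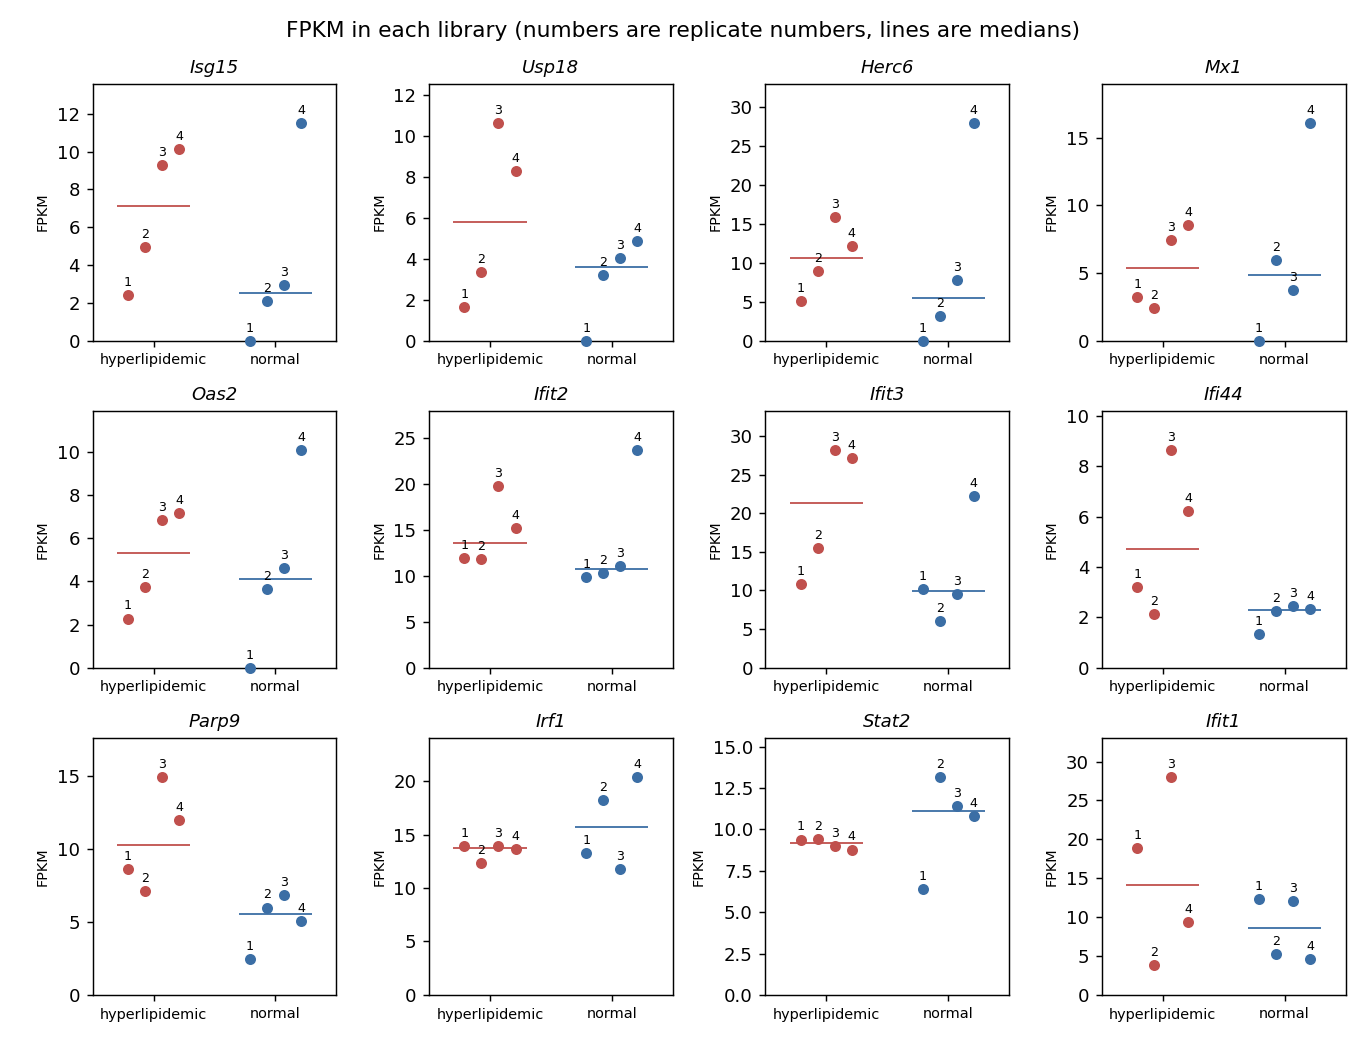
FPKM of 12 interferon-stimulated genes in the 4 hyperlipidemic (left, red) and 4 normal (right, blue) libraries; numbers beside the points are replicate numbers and lines are medians. Hyperlipidemic replicates 3 and 4 and normal replicate 4 are high for Isg15, Mx1, Oas2 and Ifit3, and normal replicate 1 is listed at 0 for Isg15, Usp18, Herc6, Mx1 and Oas2.

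Parp9 had the smallest p of the list and was the only one of the 39 genes without overlap between the groups, beside 7.94% of all genes tested without overlap, 4.19% as higher and 3.75% as lower. Parp9, an ADP-ribosyltransferase family protein that works with Dtx3l in interferon signalling, lies on chromosome 11 (67724076 to 67756799). It measured 8.61, 7.12, 14.9 and 12.0 FPKM in hyperlipidemic replicates 1 to 4, against 2.48, 5.99, 6.85 and 5.05 FPKM in normal replicates 1 to 4. The lowest hyperlipidemic value, 7.12 FPKM, was just above the highest normal one, 6.85 FPKM (2.095-fold between means, log2 change 0.95, 95% interval 0.23 to 1.68, limma adjusted p = 0.275). With libraries set to an equal sum over loci longer than 1000 bp, the groups of Parp9 overlapped. Parp14, a relative on the same chromosome, averaged 11.0 ± 4.47 FPKM in hyperlipidemic and 9.17 ± 3.61 FPKM in normal bone (0.24, adjusted p = 0.778).

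The remaining antiviral effectors gave 6 genes with a log2 change above 0 and 1 below among 7, and none was called. Ifi44 had the second smallest p. It measured 3.20, 2.12, 8.64 and 6.23 FPKM in hyperlipidemic replicates 1 to 4, against 1.33, 2.24, 2.45 and 2.34 FPKM in normal replicates 1 to 4 (2.42-fold by the means, with a log2 change of 0.85, limma adjusted p = 0.380). Normal replicate 4, high for many genes of the list, was not high here. Rsad2 was at 94.9998, 62.6, 171 and 102 FPKM in hyperlipidemic replicates, against 45.8, 85.0, 130 and 52.4 FPKM in normal replicates (log2 change 0.48, adjusted p = 0.586). Its groups overlapped. Ifitm3 averaged 34.6 ± 6.81 FPKM in hyperlipidemic and 51.5 ± 17.6 FPKM in normal bone and had the most negative log2 change of the list, -0.50 (95% interval -1.16 to 0.16, adjusted p = 0.487). Bst2, the tetherin that holds virions at the cell surface, averaged 10.4 ± 2.95 FPKM in hyperlipidemic and 8.11 ± 5.28 FPKM in normal bone. Its log2 change of 0.54 was 0.048 without normal replicate 1. Ifi27 was at 9.78, 25.5, 28.6 and 36.5 FPKM in hyperlipidemic replicates and at 5.40, 30.6, 17.5 and 51.3 FPKM in normal replicates. Its values in normal bone spanned those in hyperlipidemic bone, and its log2 change of 0.17 became -0.40 on leaving out normal replicate 1 and 0.61 on leaving out normal replicate 4. Rtp4, a transmembrane chaperone that also restricts viruses, was at 3.18, 2.93, 8.32 and 8.48 FPKM in hyperlipidemic replicates and at 0, 3.21, 3.92 and 10.7 FPKM in normal replicates. Isg20, an exonuclease, averaged 12.1 ± 5.09 FPKM in hyperlipidemic and 12.0 ± 5.24 FPKM in normal bone.

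No interferon-inducible GTPase gene was called. The products of Gbp2, Gbp5, Ifi47, Irgm and Igtp take part in defence against pathogens held in vacuoles. These genes had log2 changes from -0.17 to 0.26, with 3 above 0 and 2 below (limma adjusted p from 0.758 to 0.937). Gbp2 was at 9.26, 8.26, 14.3 and 9.38 FPKM in hyperlipidemic replicates, against 11.2, 10.8, 11.3 and 12.6 FPKM in normal replicates. Its normal values were close together and did not dip in replicate 1. Igtp was at 3.77, 1.44, 5.99 and 4.29 FPKM in hyperlipidemic replicates and at 0.202, 6.31, 3.87 and 3.89 FPKM in normal replicates. Tap2, which carries peptides to MHC class I molecules, averaged 6.95 ± 1.31 FPKM in hyperlipidemic and 6.24 ± 1.23 FPKM in normal bone (0.14, 95% interval -0.40 to 0.67).

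The order of the libraries was shared by many of these genes. Hyperlipidemic replicates 3 and 4 were both above replicates 1 and 2 for 31 of 39 genes (79.5%), beside 18.1% of all genes tested. Normal replicate 4 was the highest of its group for 24 of 39 (61.5%), beside 15.3% of all genes. Normal replicate 1 was the lowest of its group for 26 of 39 (66.7%), beside 40.1% of all genes. All of these held for 16 genes (41.0%), beside 238 of 13742 genes (1.73%). The 16 were Irf7, Ddx58, Ifih1, Dhx58, Eif2ak2, Ifit2, Oas2, Mx1, Mx2, Rtp4, Ifi27, Isg15, Usp18, Herc6, Parp14 and Irgm. These orders were chosen with the values in view and carry no test. Exceptions in the hyperlipidemic group were Irf1, Irf5, Irf8, Stat2, Zbp1, Ifit1, Ifitm3 and Ifi47. Of the 19 genes with an ISRE core in the window, 18 had hyperlipidemic replicates 3 and 4 above 1 and 2, the exception being Ifitm3. Of the 10 with a window and no such core, 5 did, and of the genes without a window all but Zbp1 and Ifit1 did. Normal replicate 4 was the highest of its group for 12 of the 19 with the core and 4 of the 10 without, and normal replicate 1 the lowest for 11 of the 19 and 7 of the 10.

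**Figure D3:**
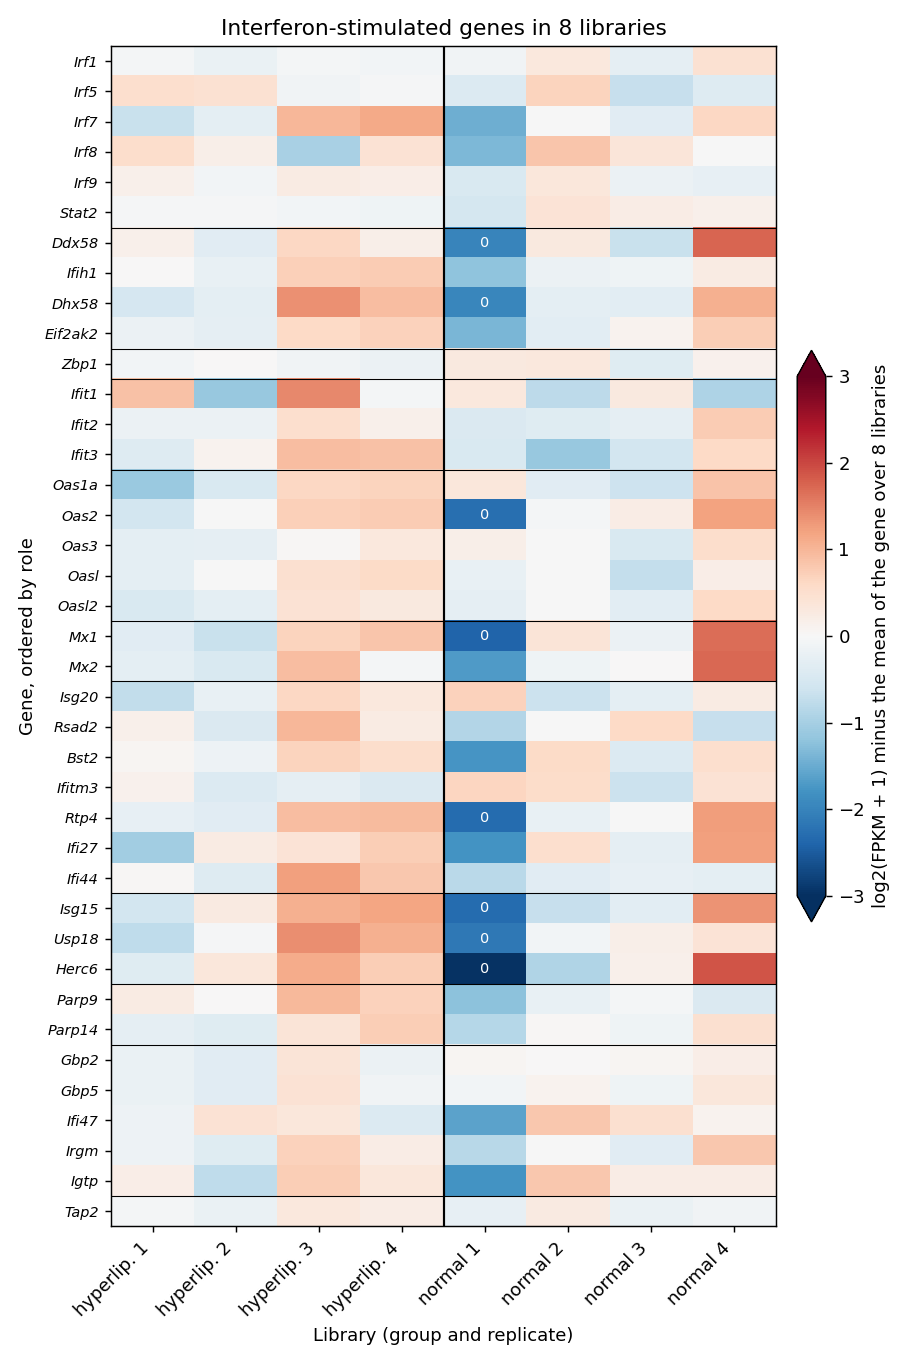
Heat map of log2(FPKM + 1) minus the mean of each gene over 8 libraries, for 39 genes in rows ordered by role and 8 libraries in columns, hyperlipidemic left of the black line; 0 marks a value listed at 0. Hyperlipidemic replicates 3 and 4 and normal replicate 4 are red for most rows, and normal replicate 1 is blue, with 8 genes listed at 0.

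Some of the same libraries also stood apart over all genes. Normal replicate 1 listed 8 of the 39 genes at 0 that were above 0 in the 7 other libraries (20.5%, beside 5.55% of all genes): Ddx58, Dhx58, Oas2, Mx1, Rtp4, Isg15, Usp18 and Herc6. It also listed 31 genes at 0 that were above 10 FPKM in each other library, so a value listed at 0 is not shown to be an absence of transcript. In normal replicate 4 the interferon-stimulated genes and all genes lay on opposite sides. The median deviation from the mean of each gene was 0.47 for the 39 genes and -0.28 for all genes tested (log2). In normal replicate 1 these medians were -0.86 and -0.18. In the hyperlipidemic group they were -0.18 and 0.23 in replicate 1, -0.23 and -0.029 in replicate 2, 0.63 and 0.069 in replicate 3, and 0.35 and 0.10 in replicate 4. Loci of up to 1000 bp took 59.65% to 70.5% of the summed FPKM in hyperlipidemic and 64.5% to 82.3% in normal libraries, with the highest share in normal replicate 4. Mitochondrial genes took 1.74% to 2.70% of the summed FPKM in hyperlipidemic and 0.713% to 1.21% in normal libraries, without overlap. The part of these library properties in the gene values was not tested. The median SD of log2(FPKM + 1) within the hyperlipidemic group was 0.50 for the 39 genes and 0.31 for all genes, and within the normal group 0.67 and 0.57.

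**Figure D4:**
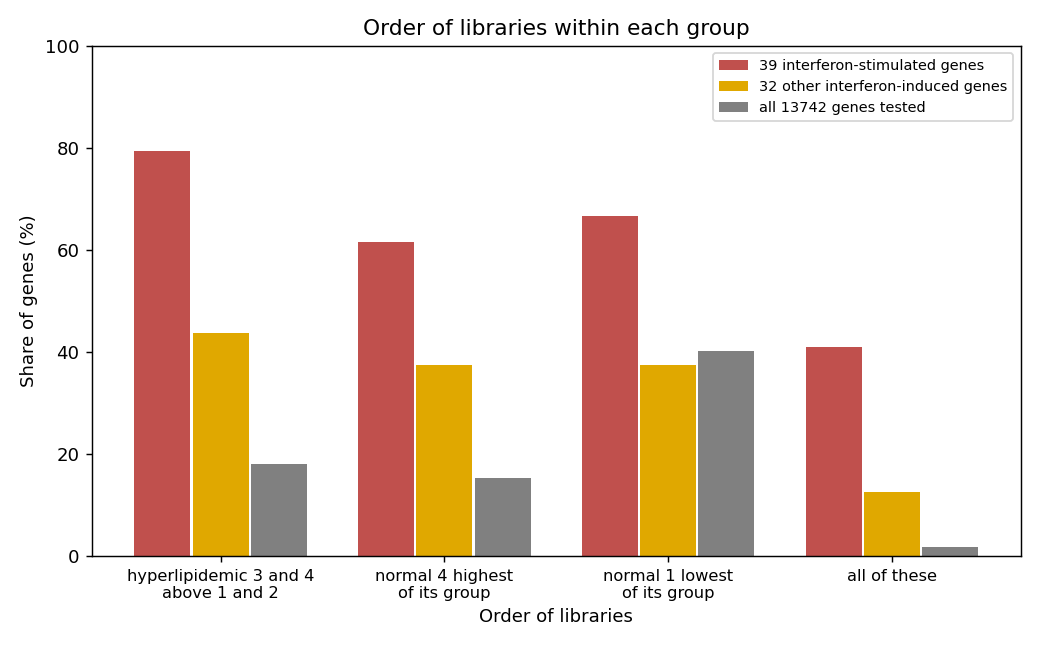
Share of genes (y axis, percent) that follow each order of libraries (x axis), for the 39 interferon-stimulated genes, 32 other interferon-induced genes and all 13742 genes tested. The orders were chosen from the 39 genes after their values were seen; all of them held together for 41.0%, 12.5% and 1.73% of genes.

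The sign of the median log2 change of the list rested on normal replicate 1. Without that library, 19 of 39 genes had a log2 change above 0 and the median was -0.0050, beside 0.16 for all genes. In that comparison 11 genes that had been above 0 were below it, among them Mx1 (-0.51), Mx2 (-0.51), Ddx58 (-0.30) and Oas2 (-0.23). Without normal replicate 4, 33 of 39 were above 0 and the median was 0.44, beside 0.11 for all genes. Leaving out hyperlipidemic replicate 2 gave a median of 0.41, beside 0.21 for all genes, and leaving out normal replicate 2 gave 0.39, beside 0.24. Without hyperlipidemic replicate 3 the median was 0.15, below the 0.19 of all genes. No gene of the list was called on leaving out any 1 library. Among the 31 genes above 0 in all 8 libraries, 22 had a log2 change above 0, with a median of 0.17.

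**Figure D5:**
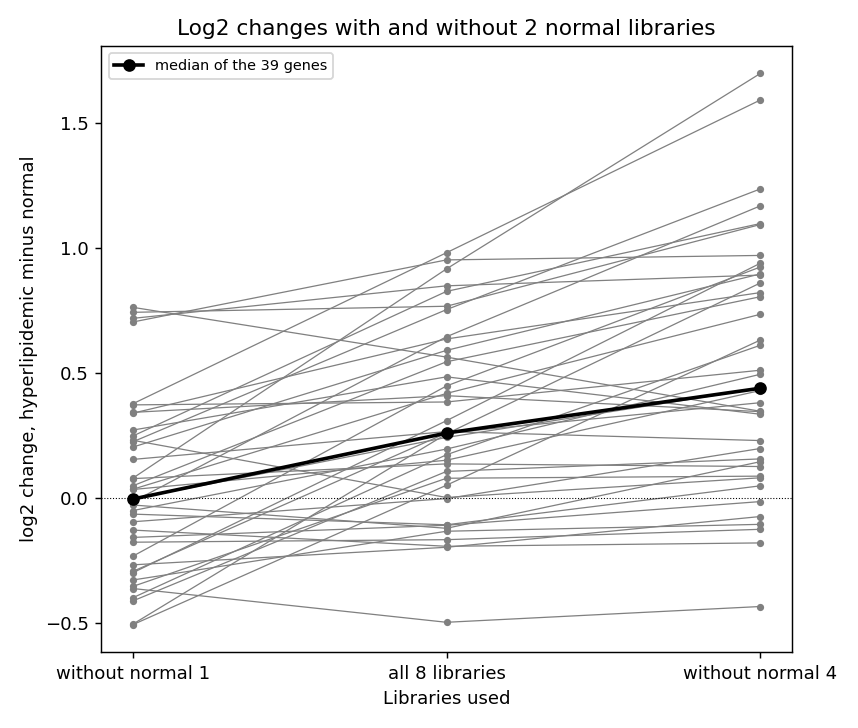
Log2 change, hyperlipidemic minus normal (y axis), of each of the 39 genes (grey) and their median (black) without normal replicate 1, with all 8 libraries and without normal replicate 4. The median was -0.0050, 0.26 and 0.44.

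Genes upstream of the list were measured in both groups, and none of them was called. Of the interferon genes themselves Ifng alone had a locus. Every hyperlipidemic library listed it at 0, and in normal bone it reached 0.0841 FPKM in replicate 2 and was 0 elsewhere. Of 4 interferon receptor genes tested, 2 were above 0 and 2 below (median log2 change 0.0075). Ifnar1, a chain of the type I receptor, had a log2 change of 0.016 (SE 0.24, limma adjusted p = 0.981). Of 6 genes that relay the signal 5 were above 0 (median 0.23). Jak2, a kinase of the interferon gamma receptor, was at 22.3, 15.6, 22.8 and 22.3 FPKM in hyperlipidemic replicates, against 10.9, 10.2, 16.7 and 12.6 FPKM in normal replicates (log2 change 0.68, limma adjusted p = 0.264). Among 14 genes of nucleic acid sensing 10 were above 0 (median 0.18). Tlr7, the endosomal sensor of single-stranded RNA, was at 11.3, 7.10, 9.48 and 12.0 FPKM in hyperlipidemic replicates, against 0.183, 7.37, 3.04 and 2.06 FPKM in normal replicates (log2 change 1.70, adjusted p = 0.213). Tbk1, the kinase that activates Irf3, averaged 6.09 ± 0.945 FPKM in hyperlipidemic and 3.19 ± 1.72 FPKM in normal bone, without overlap (0.87, adjusted p = 0.358). Of 12 genes that restrain the response, Usp18 among them, 11 were above 0 (median 0.22). Over all genes tested, 65.0% were above 0, with a median of 0.18. Socs1, Usp18, Trex1, Rnaseh2a and Rnaseh2c were listed at 0 in normal replicate 1, and Socs1, Trex1 and Rnaseh2c also in normal replicate 4. The median of the 12 was 0.62 with a pseudocount of 0.1, beside 0.28 for all genes. Under median-of-ratios scaling it was 0.11, beside 0.052. The phosphatase Ptpn11, also above 0, was at 18.9 ± 4.05 FPKM in hyperlipidemic and 8.86 ± 5.02 FPKM in normal bone (1.15, adjusted p = 0.257).

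Among 32 other interferon-induced genes tested, 20 had a log2 change above 0 and 12 below (median 0.080), beside 65.0% of all genes above 0 with a median of 0.18. Of the 32, 1 was called, beside 1.39% of all genes. Ccl5, a chemokine that T cells, NK cells and stimulated macrophages make, lies on chromosome 10 (70739800 to 70744315). It measured 3.25, 1.60, 0 and 0.441 FPKM in hyperlipidemic replicates 1 to 4, against 24.6, 11.5, 7.22 and 19.7 FPKM in normal replicates 1 to 4. All hyperlipidemic values were below all normal ones (log2 change -2.94, SE 0.50, limma adjusted p = 0.0159). The call ended with a pseudocount of 0.1 (0.0870), with no filter (0.0815), and without hyperlipidemic replicate 4 (0.0622) or normal replicate 4 (0.0607). Markers of T and NK cells lay on the same side: 8 of 8 tested had a log2 change below 0 (median -0.55), and their summed level was 69.2 to 91.7 FPKM in hyperlipidemic and 78.0 to 162 FPKM in normal libraries. Most of this sum was Nkg7, at 43.3 to 65.4 FPKM in hyperlipidemic and 50.2 to 118 FPKM in normal libraries. Of the 12 markers, Cd3d, Cd3e, Cd3g, Zap70, Gzmb, Klrd1, Ncr1 and Prf1 were at 0 in at least 1 library. The part of these cells in the Ccl5 values was not tested. Ifitm1, a relative of Ifitm3 on chromosome 1, was at 37.3, 37.2, 22.1 and 32.7 FPKM in hyperlipidemic replicates, against 246, 69.6, 45.7 and 107 FPKM in normal replicates, without overlap (-1.57, adjusted p = 0.179). The chemokines Cxcl9 and Cxcl10, made under interferon gamma, averaged under 2 FPKM in both groups. The library order of the 16 genes above was also that of Trim21, Samd9l, Cd274 and Uba7, 4 of these 32 genes.

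Marker genes were summed to describe the tissue beside which these values stand. The sums do not measure cell numbers, and single genes can lead them. Hbb alone was at 13261 of the 14257 FPKM of erythroid markers in hyperlipidemic replicate 4. Bone markers had a summed level of 894 to 1665 FPKM in hyperlipidemic and 2203 to 2945 FPKM in normal libraries (9 of 11 below 0, median -0.52, with Sost at 0 in at least 1 library). Of the 11, 2 were called lower, beside 1.24% of all genes tested. They were Bglap, which encodes osteocalcin (log2 change -1.25, limma adjusted p = 0.0201), and Ctsk, the collagen-cleaving protease of osteoclasts (-1.69, adjusted p = 0.0441). Neutrophil markers summed to 9435 to 12288 FPKM in hyperlipidemic and 9446 to 11790.5 FPKM in normal libraries, so both groups held marrow transcripts. Macrophage markers summed to 168 to 246 FPKM in hyperlipidemic and 161 to 239 FPKM in normal libraries, with 4 of 9 above 0 and none at 0. The list for plasmacytoid and dendritic cells, which shares Bst2 with the list and holds Runx2, a gene bone also expresses, summed to 36.0 to 60.6 FPKM in hyperlipidemic and 38.6 to 63.9 FPKM in normal libraries, with Siglech, Xcr1 and Clec9a at 0 in at least 1 library. B cell markers summed to 51.6, 57.1, 97.2 and 111 FPKM in hyperlipidemic replicates 1 to 4, against 119, 138, 151 and 130 FPKM in normal replicates 1 to 4 (9 of 10 below 0, Vpreb1 at 0 in at least 1 library). For 8 of these 10 markers hyperlipidemic replicates 3 and 4 were above 1 and 2, as for most genes of the list. The same held for 5 of 7 erythroid markers, which summed to 7024 to 14257 FPKM in hyperlipidemic and 6025 to 7647 FPKM in normal libraries (7 of 7 above 0, Epor at 0 in at least 1 library). Endothelial markers summed to 33.4 to 47.2 FPKM in hyperlipidemic and 25.6 to 39.9 FPKM in normal libraries, with Cldn5 at 0 in at least 1 library. None of these markers had all the library orders of the 16 genes above. The part of cell makeup in the interferon-stimulated genes was not tested.

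Non-coding transcripts at these loci gave no call. Of 27 lncRNAs that overlap 1 of the 39 genes or lie within 10 kb, 26 were tested and 0 called by limma at an adjusted p under 0.05, where 0.0843% of 14233 lncRNAs tested were called, and 3 had an unadjusted p under 0.05 (11.5%), beside 7.37% of all lncRNAs tested. Of these 3, 2 overlap Eif2ak2. The lncRNA with the smallest p measured 2.13, 1.65, 2.65 and 1.65 FPKM in hyperlipidemic bone and 0 in every normal library (limma adjusted p = 0.472). The other at that locus measured 0.811, 0.487, 4.37 and 3.56 FPKM in hyperlipidemic bone and again 0 in every normal library (adjusted p = 0.572). These were the 2 of the 26 whose hyperlipidemic values all lay above the normal ones, beside 2.93% of all lncRNAs tested. The one that overlaps Ifit1 was at 3.69, 2.497, 5.21 and 1.25 FPKM in hyperlipidemic replicates and at 0, 1.88, 2.33 and 0 FPKM in normal replicates (adjusted p = 0.676). Its identifier is that of a transcript of the assembled Ifit1 locus itself, while the 2 given at Eif2ak2 carry identifiers of other loci. Other lncRNAs overlap Eif2ak2 too, among them a transcript of the assembled Eif2ak2 locus itself. A lncRNA with the same ends as the second at Eif2ak2 was at 0, 0.772, 6.19 and 0 FPKM in hyperlipidemic replicates. In normal replicates it was at 0, 1.56, 0 and 0 FPKM, so the values above hold for single assembled transcripts. The deposited lncRNA table gives no strand, so reads of a lncRNA and of the gene it overlaps cannot be told apart here. Of 774 circRNAs, 0 named 1 of the 39 genes as host, and 2.46% of the 568 circRNAs tested were called.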

How the data were processed

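Ribosomal RNA was depleted from 3 ug of total RNA of bone within 1 mm of the implants, and strand-specific dUTP libraries gave paired 150 bp reads, per the labels' protocols. The submitters' processing notes name StringTie 1.3.3b, HISAT2 2.1.0, bcl2fastq 1.8.4 and the build Rnor_6.0. The authors deposited FPKM per library, and a log2 fold change, a p-value and a q-value per feature. Annotation, filters and their test were not given in the sources used here. Further sheets of the gene workbook (3) repeat values or name groups and were not used. Per-sample columns left unmatched numbered 0.

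The fits used limma 3.58.1 in R 4.3.3, on log2(FPKM + 1) for genes with a mean of at least 0.5 FPKM, and on log2(FPKM + 0.1) for lncRNAs with a mean of at least 0.1 FPKM. An empirical Bayes fit with a trend compared the groups over each whole table, with Benjamini-Hochberg adjustment and calls under 0.05. Fold changes on log2(FPKM + 1) understate changes of low genes. The method was tested on simulated data. Where the text names genes, these are called genes, the 16 members with the smallest p, the 8 highest, those without overlap, and the 4 smallest p of each pathway list; others are named by role. Ifnar1, Ifng, Cxcl9, Cxcl10, Trim21, Samd9l, Cd274 and Uba7 were named after their values were seen, and not every gene of the rule is reported. The members and lists were chosen with earlier results of these data known.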

Additional observations from a re-analysis of the deposited data

Results flagged for a closer look

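A single library lay far from the other 3 of its group in 2 of the 78 groups of 4 examined, where chance alone flags about 1 in 20. Ifit2 was at 23.7 FPKM in normal replicate 4, with the next highest normal library at 11.1 FPKM. Irf5 was at 9.37 FPKM in normal replicate 2, with the next highest at 3.96 FPKM.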

How the results depend on the processing

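No member was called under any setting or on leaving out any 1 library. Over all genes, 20 were called higher and 171 lower. With no filter these were 8 and 99, under quantile normalization 35 were higher, and on leaving out each library there were 5 to 47 higher and 107 to 205 lower. The call of Ccl5, the 1 call among pathway genes, gave 0 with a pseudocount of 0.1 or no filter, and 0 to 1 on leaving out each library. Members without overlap numbered 0 with an equal sum over long loci and 1 to 3 on leaving out each library. The median log2 change of members ran from -0.0050 to 0.44 on leaving out each library. Irf8 turned to -0.076, -0.0038 and -0.071, and Ifit2 to -0.010 under median-of-ratios scaling and -0.0024 with an equal sum over long loci, the Irf8 values being for median-of-ratios, quantile and equal-sum scaling. On leaving out each library Irf8 ran from -0.35 to 0.42 and Ifi27 from -0.40 to 0.61. The cause was not tested.

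The replicate numbers were shared by both groups. The correlation of deviations from the group means across genes was 0.026, 0.13, 0.054 and 0.011 for the pairs numbered 1 to 4. Hyperlipidemic replicates 1, 2 and 3 each correlated best with the normal replicate of the same number. Hyperlipidemic replicate 4 correlated best with normal replicate 3 (0.058). The correlations were small, so the main fit did not pair the libraries. Whether the numbers mark pairs was not settled. With the replicate block 4 genes were called higher over all genes, and no member was called (5 at an unadjusted p under 0.05, smallest adjusted p 0.290).

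The unknown depth limits what can be said of low values. For the genes listed at 0 in normal replicate 1, a missing estimate and low expression cannot be told apart.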
